A study of Mus musculus with 9 samples.

Results

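Transcripts of 9 genes known from B lymphocytes, Ighm, Ighd, Cd79a, Cd79b, Ms4a1, Cd22, Fcmr, Fcrla and Ebf1, were followed through RNA sequencing libraries of mouse CD8+ T cells. The members were taken by gene symbol, 9 of the 55421 genes counted, and each symbol matched 1 gene. The study asked, by its title, about mitochondria passed to T cells through intercellular nanotubes. All libraries came from spleen CD8+ T cells of the Pmel Ly5.1 genotype. Pmel stands for a T-cell receptor transgene and Ly5.1 for a form of CD45. For the MitoPositive and MitoNegative groups, T cells were kept for 36 h with DM5, an immortalized mesenchymal stromal line from BL6 bone marrow in which DsRed, a red fluorescent protein, labels the mitochondria. They were then sorted on CD8, and DsRed-positive cells made the MitoPositive group and DsRed-negative cells the MitoNegative group. The monoculture group was the control without co-culture. The protocol describes a sort of co-cultured cells and does not say whether the monoculture cells were sorted. The DM5 line is a single immortalized line, the age of the mice is not given, and a time of 0 h that stands in the sample titles is left unexplained.

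Each group had 3 libraries, lettered B, C and D. The labels do not say whether the letters stand for separate animals or cultures, so p-values measure the spread between these libraries, which may be technical. Total counts ran from 53546152 to 74722832 per library, and levels are given as CPM, counts scaled to the same library size, with sizes adjusted by the trimmed mean of M-values (TMM). Replicate libraries were distinct: between their counts, chi-square divided by its degrees of freedom was 18.2 to 63.9. Markers of T cells were high in every library, but not level between the groups. Cd8a, a chain of the CD8 co-receptor, averaged 1202 ± 63.2 CPM in MitoPositive and 1270.2 ± 70.9 CPM in MitoNegative. In monoculture it averaged 1174.5 ± 96.9 CPM (SD, n = 3 each). The 16 T-cell genes listed, Cd8a among them, had mean sums of 8736 CPM in MitoPositive, 8821 CPM in MitoNegative and 10820 CPM in monoculture. Their sum was higher in every monoculture library than in any co-cultured one.

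A B cell carries on its surface an immunoglobulin, made of heavy and light chains, that is held together with the signalling proteins CD79A and CD79B as the B-cell receptor. Mature naive B cells make IgM and IgD from the same rearranged variable segment by splicing it to the Ighm or the Ighd constant region. The transcription factors EBF1 and PAX5 switch on B-lineage genes during development, and CD20, CD22 and the IgM receptor are found on the mature cell. Some of these genes are also known outside B cells: Ighm constant-region transcripts without a rearranged variable segment are known from T-lineage cells, and Ebf1 is known from stromal and fat cell lineages of the bone marrow. In bulk libraries, fewer cells of a type and less RNA per cell cannot be told apart.

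All 9 members passed the filter on low counts, with no fewer than 33 counts in any library. Against monoculture, 8 of the 9 genes fell in MitoPositive cells and the same number fell in MitoNegative cells, while Ebf1 passed the test in neither comparison. By edgeR's quasi-likelihood test with Benjamini-Hochberg adjustment over 15711 genes, 42.2% of all genes were called in either direction in MitoPositive against monoculture and 19.9% were called lower. In MitoNegative against monoculture, 38.9% of all genes were called and 18.3% were called lower. The members' median log2 fold change was -2.34 in MitoPositive and -2.17 in MitoNegative cells against monoculture, beside medians of 0.0034 and 0.0093 over all genes. Both comparisons use the same 3 monoculture libraries. Between MitoPositive and MitoNegative cells, 1 member, Ighm, was called and was lower in MitoPositive cells, where 0.165% of all genes were called and 0.0764% were called lower. Without overlap between libraries, 8 members lay lower in MitoPositive than in monoculture, as did 24.3% of all genes, and 8 lay lower in MitoNegative than in monoculture, as did 22.9% of all genes. With the replicate letter as a block, the counts of members called stayed at 1, 8 and 8, where 2.34% (MitoPositive against MitoNegative), 47.8% (MitoPositive against monoculture) and 44.9% (MitoNegative against monoculture) of all genes were called.

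**Figure D1:**
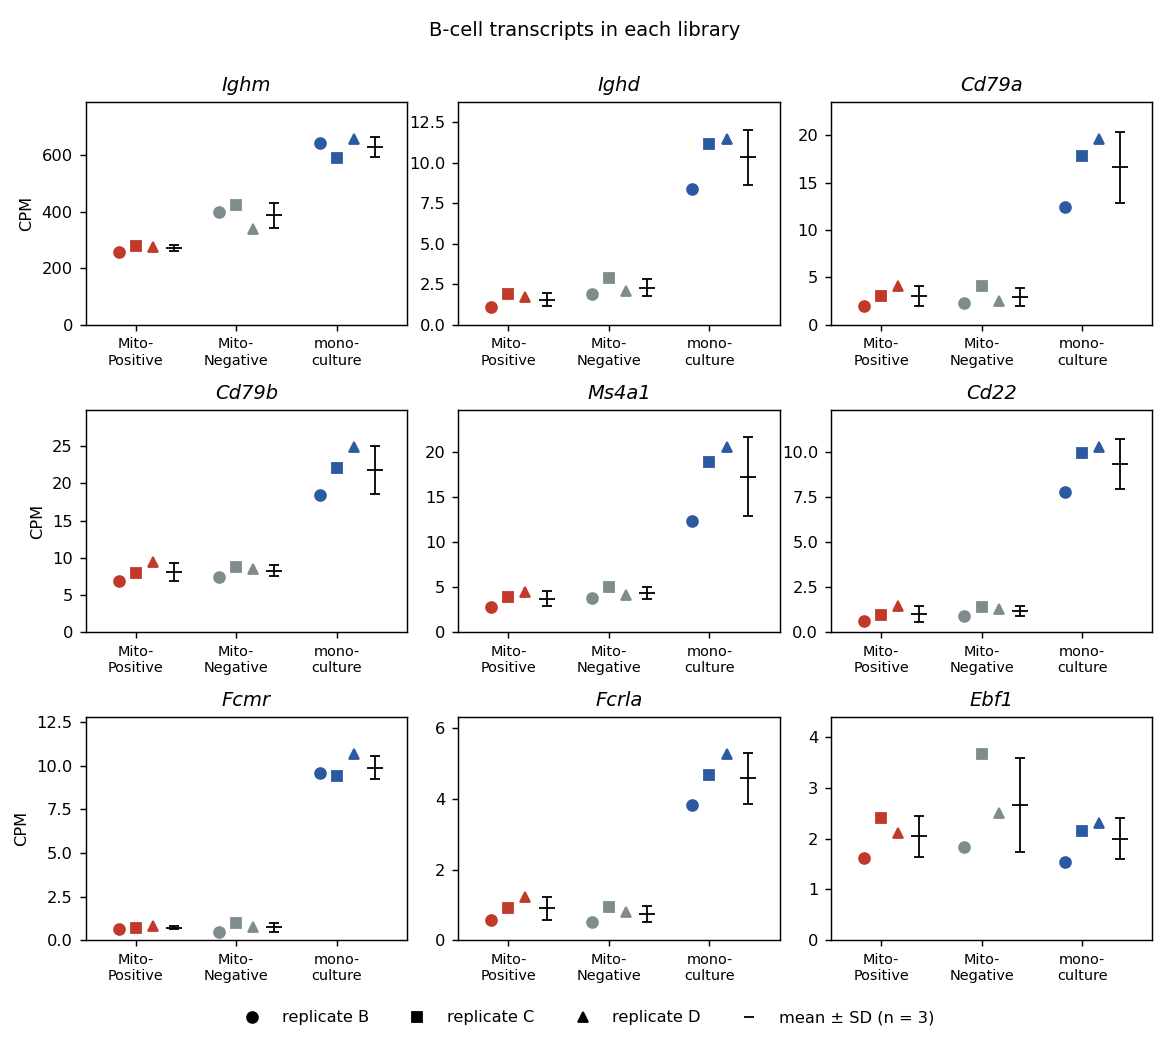
CPM of each of the 9 genes in the 3 MitoPositive, 3 MitoNegative and 3 monoculture libraries, on a linear axis from 0 of its own, 1 point per library with its letter as the shape and the mean ± SD as a black mark. The monoculture libraries lie above both co-cultured groups for 8 genes, and the groups overlap for Ebf1. Ighm is the gene on the highest scale, up to 658 CPM.

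The heavy-chain constant region of IgM, Ighm (GRCm38 chromosome 12, 113418558 to 113422730, minus strand), held most of the signal. Its level was 259, 277 and 277 CPM in MitoPositive libraries B, C and D, 400, 425 and 340 CPM in MitoNegative libraries, and 643, 590 and 658 CPM in monoculture libraries. The 3 groups did not overlap, and MitoPositive was the lowest. Ighm was 2.33-fold lower in MitoPositive than in monoculture (log2 fold change -1.22 ± 0.0856 SE, edgeR adjusted p = 9.39e-07) and 1.62-fold lower in MitoNegative than in monoculture (-0.70 ± 0.0847, edgeR adjusted p = 7.3e-05).

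Between the co-cultured groups, Ighm was 1.43-fold lower in MitoPositive than in MitoNegative cells (log2 fold change -0.52 ± 0.0846 SE, edgeR adjusted p = 0.0464), and it was lower in MitoPositive for each of the 3 letters. This call sat close to the threshold in the fit without the letter. With the letter as a block the edgeR adjusted p was 0.0179 over all 9 libraries, where 2.34% of all genes were called. With the 2 groups alone and the block it was 0.00731, where 18.2% of all genes were called. By DESeq2's own test it was 9.29e-06. Other settings, all without the block, weakened the call. Without MitoPositive B, MitoPositive C, MitoNegative B, MitoNegative C or monoculture C the adjusted p was 0.187, 0.267, 0.198, 0.23 and 0.062 in that order, with DESeq2 size factors it was 0.0511, and with T-cell genes as the scale 0.0604. Over all alternatives the log2 fold change ran from -0.61 to -0.45.

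Ighd, the constant region of IgD that lies next to Ighm (chromosome 12, 113406604 to 113416324, minus strand), had 1.09, 1.89 and 1.70 CPM in MitoPositive, 1.89, 2.88 and 2.10 CPM in MitoNegative, and 8.41, 11.2 and 11.5 CPM in monoculture libraries B, C and D. Every co-cultured library lay below every monoculture library, and the highest MitoPositive library lay just below the lowest MitoNegative one. It fell 6.67-fold in MitoPositive cells against monoculture (log2 fold change -2.74 ± 0.229, edgeR adjusted p = 3.46e-06) and 4.51-fold in MitoNegative cells (-2.17 ± 0.221, edgeR adjusted p = 2.1e-05). Between MitoPositive and MitoNegative cells its log2 fold change of -0.56 ± 0.227 did not pass (edgeR adjusted p = 0.405, 95% interval -1.06 to -0.07 before adjustment). With MitoPositive and MitoNegative fitted alone and the letter as a block, where 18.2% of all genes were called, Ighd passed (edgeR adjusted p = 0.0168). Ighm and Ighd were the 2 members whose MitoPositive and MitoNegative libraries did not overlap, where 9.55% of all genes lay lower without overlap.

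The ratio of Ighm to Ighd counts was 236, 147 and 163 in MitoPositive libraries B, C and D, 212, 148 and 161 in MitoNegative libraries and 76.5, 52.8 and 57.4 in monoculture libraries. Both co-cultured groups lay above monoculture and overlapped each other.

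The partners that carry the receptor's signal into the cell fell as well. Cd79a, the alpha chain (chromosome 7, 24897381 to 24902197, plus strand), had 2.03, 3.01 and 4.10 CPM in MitoPositive, 2.31, 4.05 and 2.55 CPM in MitoNegative, and 12.4, 17.8 and 19.6 CPM in monoculture libraries B, C and D. The co-cultured groups overlapped each other and lay below monoculture. Cd79a was 5.45-fold lower in MitoPositive than in monoculture (log2 fold change -2.45 ± 0.302, edgeR adjusted p = 0.000187) and 5.58-fold lower in MitoNegative than in monoculture (-2.48 ± 0.302, edgeR adjusted p = 0.000217).

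Cd79b, the beta chain (chromosome 11, 106311341 to 106314762, minus strand), had 6.88, 8.01 and 9.40 CPM in MitoPositive, 7.42, 8.82 and 8.51 CPM in MitoNegative, and 18.5, 22.0 and 24.9 CPM in monoculture libraries B, C and D. Again the co-cultured groups overlapped each other and lay below monoculture. It fell 2.69-fold in MitoPositive (log2 fold change -1.43 ± 0.137, edgeR adjusted p = 9.3e-06) and 2.64-fold in MitoNegative cells (-1.40 ± 0.136, edgeR adjusted p = 1.54e-05).

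Among the surface proteins of mature B cells, Ms4a1 encodes CD20, the target of therapeutic B-cell antibodies (chromosome 19, 11249675 to 11266241, minus strand). It had 2.78, 3.98 and 4.44 CPM in MitoPositive, 3.85, 5.08 and 4.11 CPM in MitoNegative, and 12.3, 18.9 and 20.6 CPM in monoculture libraries B, C and D. The lowest monoculture library was above every co-cultured one. The fall was 4.63-fold in MitoPositive (log2 fold change -2.21 ± 0.222, edgeR adjusted p = 2.39e-05) and 3.97-fold in MitoNegative cells (-1.99 ± 0.219, edgeR adjusted p = 6.26e-05).

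Cd22, an inhibitory co-receptor that binds sialic acid (chromosome 7, 30865402 to 30880342, minus strand), had 0.646, 0.952 and 1.49 CPM in MitoPositive, 0.907, 1.39 and 1.27 CPM in MitoNegative, and 7.77, 9.94 and 10.3 CPM in monoculture libraries B, C and D. All co-cultured libraries were far below monoculture. Cd22 fell 9.05-fold in MitoPositive (log2 fold change -3.18 ± 0.275, edgeR adjusted p = 5.43e-06) and 7.83-fold in MitoNegative cells (-2.97 ± 0.271, edgeR adjusted p = 1.13e-05).

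Fcmr, the receptor for the Fc part of IgM (chromosome 1, 130865669 to 130880791, plus strand), had the deepest fall of the 9 members. It had 0.659, 0.672 and 0.809 CPM in MitoPositive, 0.491, 0.988 and 0.726 CPM in MitoNegative, and 9.59, 9.45 and 10.7 CPM in monoculture libraries B, C and D. The co-cultured values rest on 33 to 69 counts per library. Fcmr was 13.8-fold lower in MitoPositive than in monoculture (log2 fold change -3.79 ± 0.219, edgeR adjusted p = 2.55e-07) and 13.4-fold lower in MitoNegative than in monoculture (-3.75 ± 0.218, edgeR adjusted p = 4.96e-07).

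Fcrla, an Fc receptor-like protein that stays inside B cells (chromosome 1, 170917576 to 170927583, minus strand), had 0.567, 0.915 and 1.23 CPM in MitoPositive, 0.506, 0.945 and 0.785 CPM in MitoNegative, and 3.82, 4.67 and 5.27 CPM in monoculture libraries B, C and D. It too was lower in every co-cultured library, by 5.08-fold in MitoPositive (log2 fold change -2.34 ± 0.288, edgeR adjusted p = 5.95e-05) and 6.13-fold in MitoNegative cells (-2.62 ± 0.292, edgeR adjusted p = 4.17e-05). Fcrla overlaps the pseudogene Gm2962 on the same strand, which had 5 to 21 counts, so reads could be split between them. Ms4a1, Cd22 and Ebf1 each overlap an antisense gene with at most 4 counts in any library.

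Ebf1, the early B-lineage transcription factor (chromosome 11, 44617317 to 45008091, plus strand), was the member that passed in no comparison. It had 1.62, 2.41 and 2.11 CPM in MitoPositive, 1.83, 3.67 and 2.50 CPM in MitoNegative, and 1.54, 2.16 and 2.30 CPM in monoculture libraries B, C and D. All 3 groups overlapped. Letter by letter, Ebf1 was higher in MitoNegative than in monoculture for 3 of 3 letters and lower in MitoPositive than in MitoNegative for 3 of 3, and neither difference passed with the letter as a block (edgeR adjusted p = 0.0742 and 0.334). Its log2 fold change was 0.03 ± 0.264 in MitoPositive against monoculture (edgeR adjusted p = 0.945, 95% interval -0.55 to 0.60) and 0.41 ± 0.261 in MitoNegative against monoculture (edgeR adjusted p = 0.236, 95% interval -0.16 to 0.99). With T-cell genes as the scale, the value in MitoNegative was 0.71 and passed (edgeR adjusted p = 0.0495).

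Markers of stromal cells, in which Ebf1 is also known, differed between these groups. Their 18 genes summed to 16.3 to 41.8 CPM in MitoPositive, 17.4 to 42.4 CPM in MitoNegative and 6.57 to 7.51 CPM in monoculture libraries. Of the 15 tested, 12 were called higher in either co-cultured group against monoculture. Of all genes, 42.2% (MitoPositive) and 38.9% (MitoNegative) were called in either direction. Of the defining genes, 9 were at 0 in all 3 monoculture libraries, among them Col1a2, a fibrillar collagen, which averaged 4.21 ± 1.84 CPM in MitoPositive and 5.06 ± 2.51 CPM in MitoNegative (SD, n = 3 each). Fn1 (fibronectin) averaged 7.66 ± 3.80 CPM in MitoPositive, 7.45 ± 3.30 CPM in MitoNegative and 0.055 ± 0.0342 CPM in monoculture. Genes at or near 0 in monoculture, such as Col1a2 and Fn1, passed the filter on low counts only through the co-cultured libraries. Their call as higher was therefore nearly fixed in advance. Col1a1 was called higher as well, with 4.3 ± 2.03, 4.41 ± 1.95 and 0.43 ± 0.175 CPM in MitoPositive, MitoNegative and monoculture. Thbs1, also on the list, did not pass in either comparison. It averaged 5.63 ± 0.900 CPM in monoculture, most of the mean stromal sum of 6.89 CPM there. In both co-cultured groups the stromal sum was highest in library C and lowest in library D. Ebf1 was highest in library C and lowest in library B in both. The part of stromal RNA in the Ebf1 level was not tested.

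**Figure D2:**
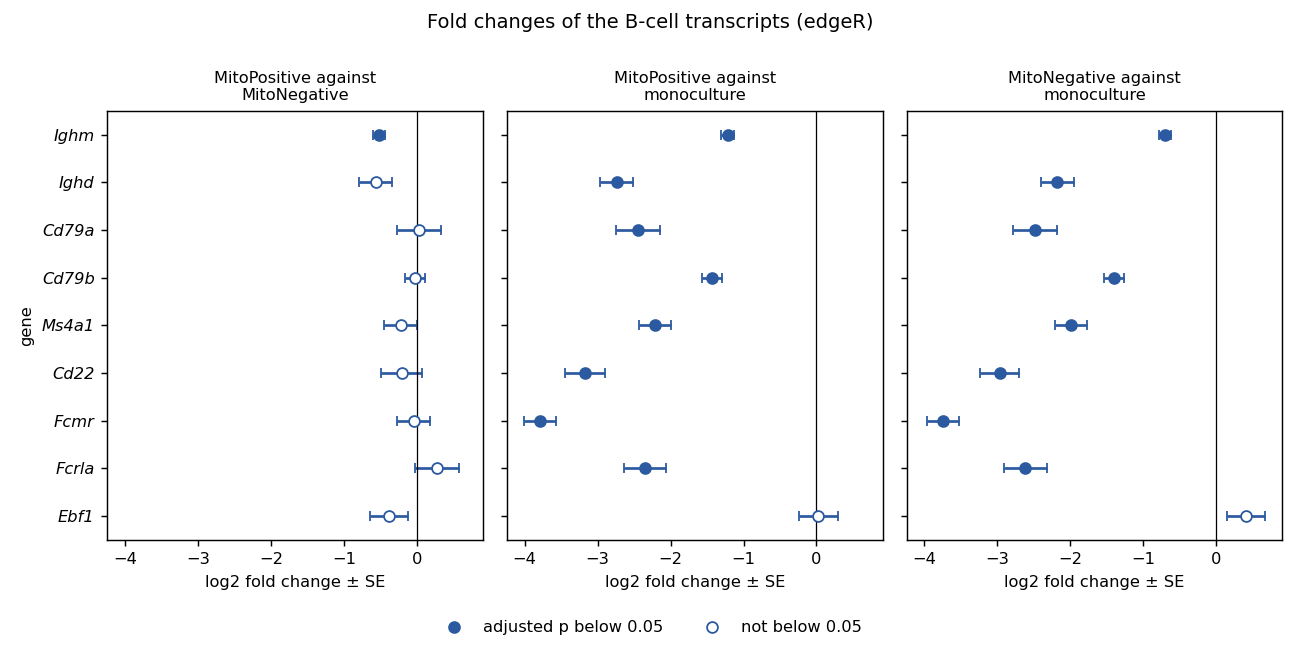
Log2 fold change of each gene with its SE in MitoPositive against MitoNegative, MitoPositive against monoculture and MitoNegative against monoculture, from edgeR. Against monoculture the falls run from -0.70 for Ighm in MitoNegative to -3.79 for Fcmr in MitoPositive, with Ebf1 at 0.03 and 0.41. Between MitoPositive and MitoNegative, Ighm at -0.52 is the member called.

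Apart from Ighm, none of the members passed between MitoPositive and MitoNegative cells in the fit without the letter (edgeR adjusted p of 0.405 or more). In that fit 2 of the 9, Ighm and Ighd, had an unadjusted p under the threshold of 0.05. With the letter as a block over all 9 libraries, none but Ighm passed either (edgeR adjusted p of 0.0752 or more). With the 2 groups alone and the block, Ighd passed too (edgeR adjusted p = 0.0168). The 95% interval of the log2 difference was -0.33 to 0.27 for Cd79b, -0.65 to 0.71 for Cd79a, -0.71 to 0.26 for Ms4a1, -0.82 to 0.40 for Cd22, -0.54 to 0.46 for Fcmr, -0.39 to 0.93 for Fcrla and -0.96 to 0.18 for Ebf1. These intervals leave out the letter, although same-letter libraries met the limit for a pairing in this comparison. The block lowered the SE of each of these genes, from 0.302 to 0.182 for Cd79a and from 0.228 to 0.219 for Fcmr.

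Levels were set beside each other per kilobase of exon. In monoculture Ighm had 334 CPM per kb, followed by Cd79b with 15.2, Cd79a with 11.4, Fcmr with 5.70, Ighd with 5.45, Ms4a1 with 2.79, Fcrla with 2.63, Cd22 with 1.85 and Ebf1 with 0.205 CPM per kb. Cd79b and Cd79a overlapped across libraries, as did Fcmr and Ighd, and Ms4a1 and Fcrla. In MitoPositive cells the order was Ighm at 144, Cd79b at 5.66, Cd79a at 2.09, Ighd at 0.821, Ms4a1 at 0.603, Fcrla at 0.518, Fcmr at 0.411, Ebf1 at 0.210 and Cd22 at 0.204 CPM per kb. In MitoNegative cells it was Ighm at 206, Cd79b at 5.77, Cd79a at 2.04, Ighd at 1.21, Ms4a1 at 0.703, Fcrla at 0.427, Fcmr at 0.423, Ebf1 at 0.273 and Cd22 at 0.236 CPM per kb. Fcmr lay above Ms4a1 and Fcrla in every monoculture library and overlapped both in MitoPositive libraries. Ighm alone held 86.0% to 95.4% of the members' summed CPM over the 9 libraries. Without Ighm and Ebf1, the other 7 summed to 14.7 to 23.2 CPM in MitoPositive, 17.4 to 24.2 CPM in MitoNegative and 72.8 to 103 CPM in monoculture libraries.

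Counts of the other members were set against those of Cd79b in the same library, which takes out depth and scale. Fcmr counts per Cd79b count averaged 0.0886 ± 0.00633 in MitoPositive libraries, 0.0878 ± 0.0230 in MitoNegative libraries and 0.459 ± 0.0519 in monoculture (SD, n = 3 each). Cd22 per Cd79b was 0.124 ± 0.0327, 0.143 ± 0.0185 and 0.429 ± 0.0205, and Cd79a per Cd79b was 0.369 ± 0.0708, 0.357 ± 0.0892 and 0.756 ± 0.0725, in MitoPositive, MitoNegative and monoculture. Of the 8 other members, 6 were lower per Cd79b count in both co-cultured groups than in every monoculture library, namely all but Ighm and Ebf1. Outside the members, Pax5 per Cd79b averaged 0.582 ± 0.139 in MitoPositive, 0.587 ± 0.201 in MitoNegative and 0.388 ± 0.0656 in monoculture. Igkc per Cd79b averaged 0.595 ± 0.109, 0.603 ± 0.113 and 0.700 ± 0.0541 in the same groups. Both genes overlapped monoculture in both co-cultured groups. Over all genes that passed the filter, Cd79b aside, 0.617% lay lower per Cd79b count without overlap in MitoPositive and 0.363% in MitoNegative against monoculture. Cd79b itself fell 2.69-fold in MitoPositive and 2.64-fold in MitoNegative cells, so a gene at level CPM rises per Cd79b count. These shares are low for that reason, and a lower ratio restates a deeper fall than that of Cd79b.

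Ebf1 per Cd79b went the other way, with 0.253 ± 0.0413 in MitoPositive, 0.319 ± 0.0871 in MitoNegative and 0.0913 ± 0.00752 in monoculture. Ighm per Cd79b was 33.9 ± 4.10 in MitoPositive, 47.3 ± 7.04 in MitoNegative and 29.3 ± 4.72 in monoculture, and the MitoPositive libraries overlapped monoculture while the MitoNegative ones did not. With 3 libraries against 3, the exact permutation test cannot go below p = 0.1. The members' ratios that did not overlap, all but Ighm in MitoPositive, reached that value (two-sided, adjusted p = 0.107 over 16 tests).

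**Figure D3:**
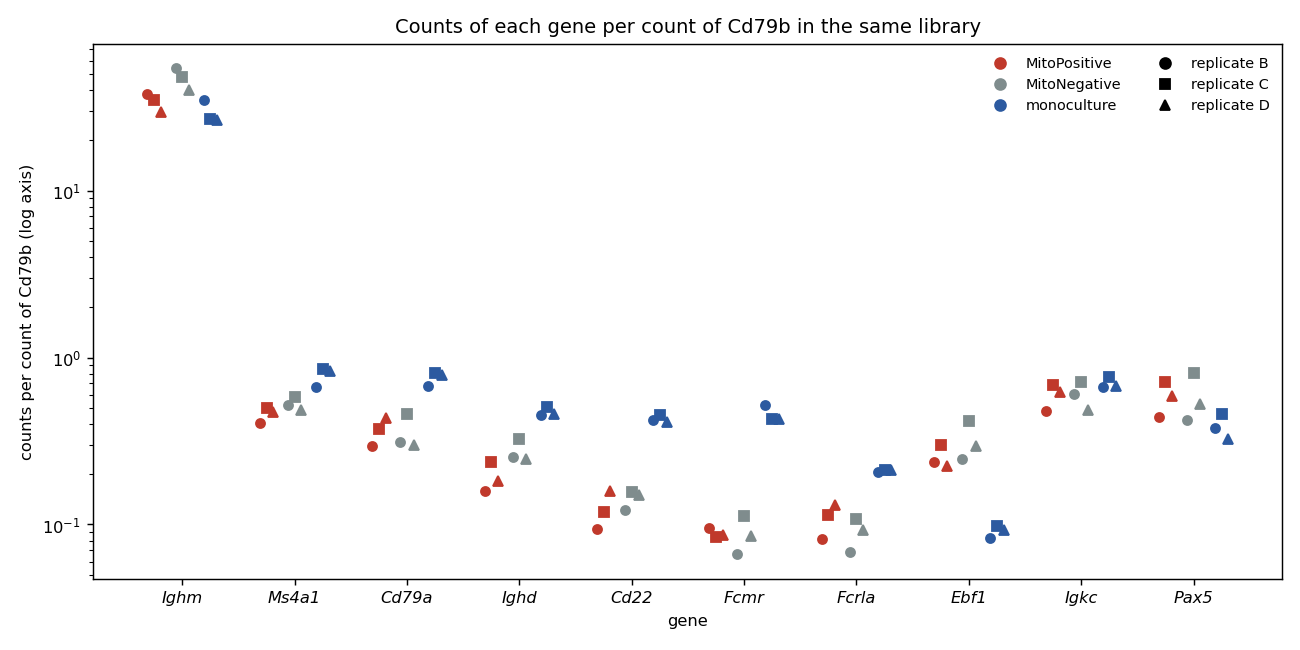
Counts of each gene per Cd79b count (log axis) in MitoPositive, MitoNegative and monoculture libraries, 1 point per library. The shape gives the letter; Igkc and Pax5 are drawn beside the members. Fcmr lies at means of 0.0886 (MitoPositive), 0.0878 (MitoNegative) and 0.459 (monoculture), while Ebf1 lies higher in the co-cultured groups.

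The immunoglobulin light chains fell as well. Igkc, the kappa constant region, averaged 4.87 ± 1.40 CPM in MitoPositive, 4.99 ± 1.15 CPM in MitoNegative and 15.3 ± 2.56 CPM in monoculture (SD, n = 3 each), with log2 fold changes of -1.65 and -1.61 against monoculture (edgeR adjusted p = 0.0003 and 0.000434). Of the 5 light-chain and J-chain genes tested of 7 listed, 5 fell in MitoPositive and 4 in MitoNegative cells against monoculture. The J chain gene is 1 of these 5 and is counted again among the plasma cell genes. The exception was the lambda gene Iglc3 in MitoNegative cells (log2 fold change -0.85, edgeR adjusted p = 0.0896), which passed with the letter as a block (edgeR adjusted p = 0.00976). The other lambda genes Iglc1 and Iglc2 fell in both.

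Variable segments were also lower in both co-cultured groups than in monoculture. The 185 Ighv genes together averaged 4.79 ± 1.18 CPM in MitoPositive, 4.44 ± 0.924 CPM in MitoNegative and 14.4 ± 3.30 CPM in monoculture. The 160 Igkv genes averaged 6.11 ± 1.53, 5.93 ± 1.58 and 19.7 ± 4.08 CPM, and the 3 Iglv genes 0.937 ± 0.161, 0.800 ± 0.149 and 3.23 ± 0.742 CPM, in MitoPositive, MitoNegative and monoculture. Counts were spread over many Ighv genes, with 54 to 74 detected in MitoPositive, 59 to 71 in MitoNegative and 79 to 87 in monoculture libraries, and no Ighv gene held more than 9.68% of a library's Ighv counts. Near-identical variable segments can split reads, so single segments are not named.

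Ighm was high beside the variable segments and light chains. There were 58.6 ± 12.1 Ighm counts per Ighv count in MitoPositive libraries, 89.7 ± 19.9 in MitoNegative libraries and 45.4 ± 11.5 in monoculture (SD, n = 3 each). Per kilobase, Ighm stood at 16.6 ± 4.94, 22.4 ± 3.09 and 11.9 ± 2.50 times the level of Igkc in MitoPositive, MitoNegative and monoculture. The joining segments, whose 4 Ighj genes lie upstream of Ighm, summed to 0.699, 0.766 and 0.809 CPM in MitoPositive, 1.20, 2.09 and 1.88 CPM in MitoNegative, and 4.87, 6.05 and 3.87 CPM in monoculture libraries B, C and D. The joining segments, on 41 to 146 counts per co-cultured library, thus lay lower in MitoPositive than in MitoNegative libraries without overlap, as Ighm did. Of all genes, 9.55% lay lower without overlap in this comparison. The summed Ighv levels overlapped. So did the diversity (Igh D) segments, with 0.0264 to 0.0934 CPM in MitoPositive and 0.0744 to 0.215 CPM in MitoNegative libraries, on 2 to 15 counts. The source of these Ighm transcripts was not tested.

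Of 5 switched heavy chains tested, 2 rose and 1 fell in MitoPositive, and 2 rose in MitoNegative cells against monoculture. Ighg2b averaged 1.83 ± 0.481 CPM in MitoPositive, 2.19 ± 0.796 CPM in MitoNegative and 0.519 ± 0.211 CPM in monoculture, and Ighg2c averaged 2.01 ± 0.355, 2.36 ± 0.626 and 0.423 ± 0.221 CPM in the same groups. Both rose in MitoPositive (log2 fold change 1.81 and 2.24) and in MitoNegative cells (2.08 and 2.47) against monoculture, with edgeR adjusted p between 0.000192 and 0.0016. Ighg3 fell in MitoPositive cells (-1.22, edgeR adjusted p = 0.0382) and had -0.87 in MitoNegative cells, where it passed only with the letter as a block (adjusted p = 0.0401, against 0.121 without). Ighg1 did not pass in either comparison.

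Of 17 other B-cell surface genes, 10 fell and 2 rose in MitoPositive, and 10 fell and 1 rose in MitoNegative cells against monoculture, where 2 rose with the letter as a block. The list had a median log2 fold change of -0.84 in MitoPositive and -0.90 in MitoNegative cells. Cxcr5, a chemokine receptor of B-cell follicles also known from some T cells, fell in MitoPositive (log2 fold change -1.66, edgeR adjusted p = 0.00219) and in MitoNegative cells (-1.43, edgeR adjusted p = 0.00513). Tnfrsf13b fell by 0.44 and 0.49 and Cd72 rose by 0.33 and 0.39 on the log2 scale, in MitoPositive and MitoNegative cells against monoculture. Cd37, a tetraspanin of lymphocytes, did not pass. Tnfrsf13b, Cd72 and Cd37 averaged 56.6, 40.5 and 202 CPM in MitoPositive, and in each group they stood above every member but Ighm. The cells behind this RNA were not tested.

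The 8 B-cell transcription factors listed beside Ebf1 had 5 that fell and none that rose in either co-cultured group against monoculture, with median log2 fold changes of -0.81 in MitoPositive and -0.80 in MitoNegative cells. Pou2f2, which encodes OCT2, fell by 0.80 and 0.83, and Tcf3 by 0.22 and 0.26, on the log2 scale (edgeR adjusted p of 0.0186 or less). In MitoPositive, MitoNegative and monoculture, Pou2f2 averaged 76.6, 74.7 and 133 CPM and Tcf3 168, 164 and 197 CPM. Both stood above every member but Ighm, and which cells this RNA came from was not tested. Pax5, the B-lineage commitment factor, averaged 4.77 ± 1.52 CPM in MitoPositive, 4.92 ± 2.04 CPM in MitoNegative and 8.4 ± 1.55 CPM in monoculture. Its log2 fold changes of -0.82 and -0.77 did not pass (edgeR adjusted p = 0.0711 and 0.0922). With the letter as a block both passed (adjusted p = 0.000824 in MitoPositive and 0.00115 in MitoNegative cells), although same-letter libraries of MitoPositive and monoculture did not meet the limit for a pairing. Irf8 had log2 fold changes of 0.04 and 0.32, of which the MitoNegative value passed with the block (adjusted p = 0.00565, against 0.298 without).

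Among 9 genes listed under B-cell receptor signalling, 6 fell and 2 rose in MitoPositive, and 5 fell and 2 rose in MitoNegative cells against monoculture. Ralgps2 fell by 0.62 and 0.55 on the log2 scale, while Lyn did not pass. The 2 that rose were Plcg2, a phospholipase, and Pik3ap1, an adaptor of PI3 kinase. Plcg2 averaged 28.5 ± 2.98 CPM in MitoPositive, 21.5 ± 2.81 CPM in MitoNegative and 10.9 ± 1.85 CPM in monoculture. It rose by 1.39 in MitoPositive and 0.99 in MitoNegative cells against monoculture (edgeR adjusted p = 1.65e-05 and 0.00023). Between MitoPositive and MitoNegative its log2 fold change of 0.41 passed with the letter as a block (adjusted p = 0.0171) and not without it (0.269). Pik3ap1 rose by 1.27 and 1.41 (edgeR adjusted p = 7.92e-05 and 5.75e-05).

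**Figure D4:**
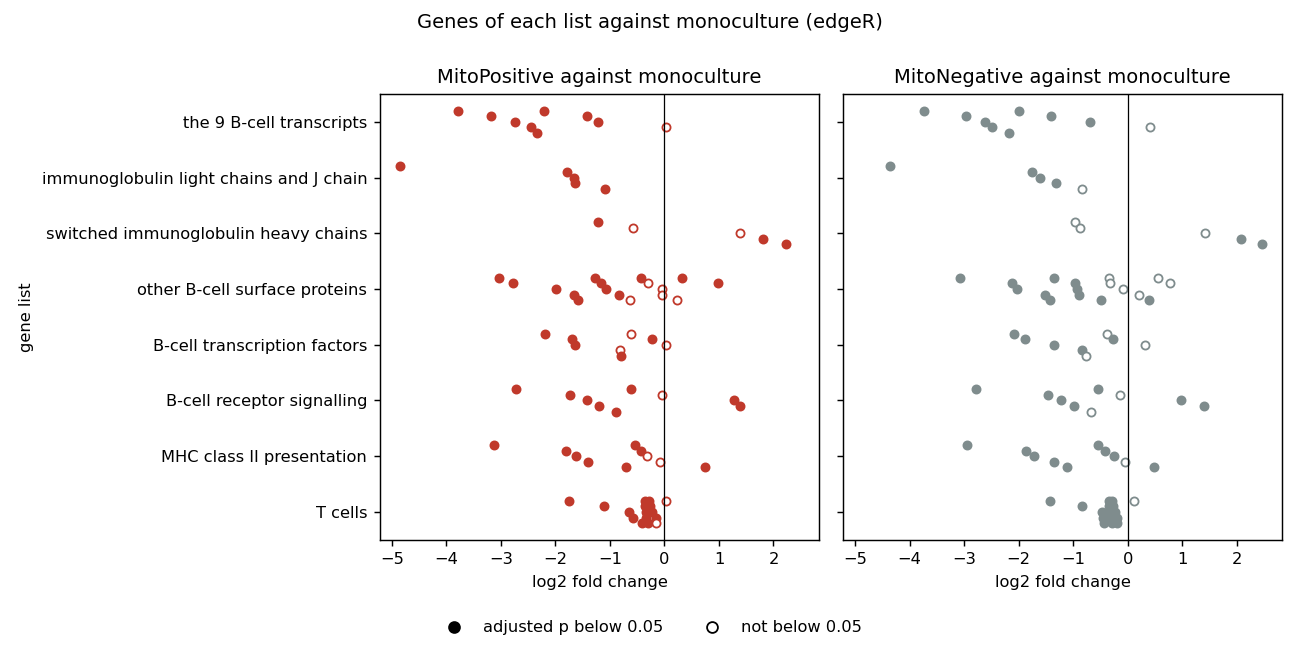
Log2 fold change of each tested gene in MitoPositive against monoculture and in MitoNegative against monoculture, 1 point per gene, by list, with filled points called by edgeR and open points not. Light chains, other B-cell surface genes and class II genes lie mostly below 0, and T-cell genes are called lower in 14 (MitoPositive) and 15 (MitoNegative) of 16, around medians of -0.34 and -0.31.

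Markers of other cell types were read for the same libraries. Of 10 MHC class II presentation genes, which B cells and dendritic cells use to show antigen, 7 fell and 1 rose in MitoPositive and 8 fell and 1 rose in MitoNegative cells against monoculture. Cd74, the invariant chain, averaged 20.3 ± 5.04, 21.3 ± 5.88 and 70.5 ± 15.8 CPM in MitoPositive, MitoNegative and monoculture. Of 16 T-cell genes, 14 fell in MitoPositive and 15 in MitoNegative cells, with median log2 fold changes of -0.34 and -0.31 and summed levels of 8576 to 8861 CPM in MitoPositive, 8489 to 9048 CPM in MitoNegative and 10047 to 11611 CPM in monoculture libraries. Trbc2 and Cd3d fell in both and Cd8a passed in neither.

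Of 5 plasma cell genes tested, 1 was higher and 1 lower in MitoPositive, and 1 was lower in MitoNegative cells. The 1 lower was the J chain gene Jchain, named after its values were seen, with 0.0574 ± 0.0511 CPM in MitoPositive, 0.0779 ± 0.0294 CPM in MitoNegative and 1.65 ± 0.589 CPM in monoculture. Jchain passed the filter on low counts only through the monoculture libraries, so its call as lower was nearly fixed in advance. Dendritic cell genes had 1 of 6 higher and 1 lower in MitoPositive and 1 higher in MitoNegative cells, and their summed level overlapped across groups. With the letter as a block, 2 were higher and 1 was lower in MitoNegative cells: Itgax passed as higher (edgeR adjusted p = 0.0106) and Batf3 as lower (3.27e-05). Myeloid genes had 2 of 10 higher in both groups, with 2 lower in MitoPositive and 1 lower in MitoNegative cells, and natural killer genes had 1 of 4 higher in both groups, with 3 lower in MitoPositive and 1 lower in MitoNegative cells. With the block, 2 natural killer genes were higher in MitoNegative cells, with Klre1 added (edgeR adjusted p = 0.0376). Between MitoPositive and MitoNegative cells, edgeR called 0 of the 109 genes tested in the 12 lists, of which 11 had an unadjusted p under 0.05, while the block called 5, DESeq2 4 and limma voom 0. The part of any other cell type in the levels of the members was not tested.

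The members varied together across libraries within a group. Library B was lowest for 9 of 9 members in MitoPositive, 8 of 9 in MitoNegative and 7 of 9 in monoculture. The highest was library D for 6 of 9 members in MitoPositive, C for 9 of 9 in MitoNegative and D for 9 of 9 in monoculture. The labels do not say what a letter stands for. Such counts were not taken over all genes, so they cannot be called particular to the members. Residuals of same-letter libraries over all genes correlated at 0.339 to 0.459 between MitoPositive and MitoNegative. After the group means were taken out, the log2 CPM of 7 members correlated with the mean of the other members at a Pearson r of 0.73 to 0.97 over 9 libraries, and Ebf1 did so at 0.87, while Ighm did so at 0.31. With group means left in, r was -0.086 for Ebf1 and 0.90 for Ighm. These correlations share libraries and depth and describe these 9 libraries.

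Outside the members, the gene whose log2 CPM was most like their mean over the 9 libraries was H2-Aa, a class II alpha chain (Pearson r = 0.998 among 11552 genes with a mean log2 CPM of at least 0). Its geometric mean level was 2.75 CPM in MitoPositive, 3.17 CPM in MitoNegative and 24.7 CPM in monoculture. The next were Prkcb, Mef2c, Tmem19, Ppic, Map4k4, Fam210b, Ppa2, Rmnd5a and Rassf3, the last at r = 0.990. With group means taken out, the genes most alike included Btk (0.985) and H2-Aa (0.978), and also Rad52, Myh10, Fam110a, Cd74, Cd5, Kcnn4 and Fam53c.

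The promoter windows of 3 members that fell together are shown for the motif letters they hold. Of the 9 members, 5 had a start in RefSeq's promoter table (GRCm38.p6). In each window of 250 bases before the start, 5′ to 3′ on the gene's strand, capitals mark matches on either strand of CCCNNGGG, the core letters of the EBF1 motif, or of CAGGTG, an E-box bound by E proteins such as the TCF3 product. Cd79a is at chr7:24897247-24897496 (plus strand), Cd22 at chr7:30879029-30879278 (minus strand) and Fcrla at chr1:170927584-170927833 (minus strand).
Cd79a: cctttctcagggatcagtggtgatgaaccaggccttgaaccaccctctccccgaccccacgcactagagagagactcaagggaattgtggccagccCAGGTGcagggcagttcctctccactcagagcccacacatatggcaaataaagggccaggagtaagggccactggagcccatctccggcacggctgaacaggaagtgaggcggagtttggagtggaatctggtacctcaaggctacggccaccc
Cd22: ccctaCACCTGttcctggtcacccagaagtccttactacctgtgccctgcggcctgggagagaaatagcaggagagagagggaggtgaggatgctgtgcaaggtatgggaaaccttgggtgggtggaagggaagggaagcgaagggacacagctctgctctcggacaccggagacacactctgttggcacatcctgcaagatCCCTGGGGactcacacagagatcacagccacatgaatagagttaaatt
Fcrla: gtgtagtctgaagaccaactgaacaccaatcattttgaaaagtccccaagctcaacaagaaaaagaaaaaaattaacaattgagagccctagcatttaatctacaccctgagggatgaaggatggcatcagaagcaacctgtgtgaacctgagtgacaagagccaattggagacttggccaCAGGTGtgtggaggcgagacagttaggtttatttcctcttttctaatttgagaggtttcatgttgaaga

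The Cd22 window held 1 match of each motif, with the E-box as its reverse complement CACCTG. The Cd79a and Fcrla windows held 1 CAGGTG each and no CCCNNGGG. Over 32851 RefSeq promoter windows of the same length, 11.8% held CCCNNGGG and 17.2% held CAGGTG. The octamer ATGCAAAT, known from immunoglobulin promoters and held by 1.60% of all windows, was in none of the members' windows, and neither Fcmr nor the 2 listed starts of Ebf1 held any of the 3 motifs. The RefSeq starts lay 116 bases (Cd79a), 1314 bases (Cd22) and 0 bases (Fcrla) inside the deposited gene, so other starts of these genes were not read. A match is a stretch of letters, not a measured binding site. Only these exact letters were searched, so a window without a match can still hold a looser form of a motif.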

How the data were processed

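Raw counts per gene were deposited by the authors for 9 libraries of total RNA depleted of ribosomal RNA. Per the submitters' processing notes, bcl2fastq, cutadapt, STAR 2.7, featureCounts, DESeq2 and the build GRCm38 stand behind these counts. Which annotation release and strand setting were used is not given in the sources used here. Antisense genes therefore cannot be told apart. A second, filtered table of counts was not used. Gene symbols and coordinates came from the authors' deposited annotation.

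The tests were run with edgeR 4.0.16 under R 4.3.3. filterByExpr (minimum count 10, minimum total 15) left 15711 genes. The 99 spike-in entries had 0 counts and were left out. TMM scaling, robust quasi-likelihood fits by group over all 9 libraries and Benjamini-Hochberg adjustment with a threshold of 0.05 were used. Intervals are at 95%. Alternatives were DESeq2 1.42.0, limma 3.58.1 (voom), other scales, no filter, a block for the letter, 2 groups alone and leaving out each library. On simulated data with known changes, MitoPositive against MitoNegative recovered 64% of 2-fold changes over 15462 genes, and 6.96% of its calls were false. False calls made up 4.72% in MitoPositive against monoculture and 11.1% in MitoNegative against monoculture. The simulated libraries were drawn independently, without pairing by letter.

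Residuals of same-letter libraries correlated at 0.402, 0.339 and 0.459 for B, C and D between MitoPositive and MitoNegative, and at 0.213, 0.153 and 0.111 between MitoNegative and monoculture, above the limit of 0.1 for a pairing read from the data. Between MitoPositive and monoculture they were 0.248, 0.0521 and 0.163, so that pairing was not taken.

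The 9 members and the 12 gene lists (light chains and J chain, switched heavy chains, other B-cell surface, B-cell transcription factors, B-cell receptor signalling, plasma, MHC class II, dendritic, myeloid, T, natural killer and stromal cells) were chosen with earlier results of these data known. Genes named were the members, up to 4 genes of highest mean CPM in each list and the 10 genes most like the members, plus those said to be chosen after their values were seen. A gene of the lists is not reported here by name.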

Additional observations from a re-analysis of the deposited data

How the results depend on the processing

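Against monoculture, 8 members were called lower under every alternative, Ebf1 aside. With T-cell genes as the scale the median of all genes moved to 0.31 in MitoPositive and 0.30 in MitoNegative against monoculture (log2), and the falls of the 8 members to between -0.41 and -3.48. Between MitoPositive and MitoNegative, the number of members called was 0 with DESeq2 size factors, 0 with T-cell genes as the scale, 2 with the 2 groups alone and the replicate block, where Ighd passed too (adjusted p = 0.0168), and 0 to 1 when 1 library was left out. The adjusted p of Ighm ran from 9.29e-06 by DESeq2's own test to 0.267 without MitoPositive C, and was 0.0179 with the replicate block over all 9 libraries, which called 1, 8 and 8 members in the 3 comparisons, as the fit without it did. Over all genes the block raised calls between MitoPositive and MitoNegative to 367, against 26 without it, and DESeq2 called 415. Of the 109 list genes tested, the block called 84 in MitoPositive against monoculture and 82 in MitoNegative against monoculture, against 78 and 71 without it. The genes gained in MitoPositive include Pax5, H2-Ab1 (adjusted p = 0.0055) and Batf3 (0.000195). The cause was not tested.

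Uncalled differences changed sign. With 1 library left out, MitoPositive against MitoNegative ran from -0.25 to 0.33 for Cd79a, -0.15 to 0.079 for Cd79b, -0.59 to 0.051 for Cd22, -0.26 to 0.23 for Fcmr and -0.031 to 0.53 for Fcrla (log2), and Ebf1 in MitoPositive against monoculture from -0.13 to 0.17. Fcmr between MitoPositive and MitoNegative was 0.0072 by limma voom and 0.0011 with the 2 groups alone and the replicate block. The cause was not tested. On simulated data for MitoPositive against MitoNegative, 44% of 1.5-fold changes were found over 15462 genes, so small differences can be missed.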
